A study of Arabidopsis thaliana with 14 samples.

Results

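Regions of histone H3 lysine 36 trimethylation (H3K36me3) that lie inside the long introns of Arabidopsis genes are described here. A region was counted as a member when its centre lay in an intron of at least 1000 bp of a nuclear protein-coding gene, an intron being a run of bases that is exon in no annotated transcript of that gene. Of 102878 regions in both lists, 628 were members, 328 of 50290 at 16 °C and 300 of 52588 at 25 °C. They made up 0.654% of the nuclear regions at 16 °C and 0.572% at 25 °C. The annotation held 662 such introns in 628 genes, and 238 of these genes held a member in at least 1 list.

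Chromatin immunoprecipitation sequencing (ChIP-seq) was carried out on Arabidopsis thaliana Col-0, a wild-type accession, using shoot tissue enriched for the apical meristem after removal of the leaves. Plants grew for 5 weeks at 16 °C in short days with 8 h of light and 16 h of darkness. Samples of 0.5 g were taken from plants kept at 16 °C and from plants that had been shifted to 25 °C for 1 day. The 14 samples comprised 4 H3K36me3 and 3 total H3 samples at each temperature, without a mutant, transgene or chemical. The study asked how this mark relates to splicing when the temperature rises. For 25 °C replicate A of H3K36me3 the title names H3K36me3 while the antibody entry names H3, and the sample was kept in the group that its title gives.

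All values below come from 2 region lists, each made by the authors from the pooled replicates of a temperature. No value per replicate could be had, the number of reads behind each list is unknown, and therefore no difference between temperatures could be tested against the spread between replicates. The Wilson 95% confidence intervals given in brackets cover counting error only. The shoot tissue is a mixture of cell types, so fewer cells carrying the mark and less mark per cell cannot be told apart.

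H3K36me3 is placed on nucleosomes of transcribed genes, in Arabidopsis mainly by the methyltransferase SDG8, and reader proteins such as MRG1 and MRG2 bind it. In plants the mark lies mostly over the first part of the transcribed body, unlike in mammals. Most Arabidopsis introns are short. Some long introns carry transposon insertions or binding sites for regulators, as in the first intron of the floral repressor FLC, and some genes with heterochromatin in a long intron need the chromatin proteins EDM2 and IBM2 for full-length transcripts.

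Several members and introns that recur below are shown here, read on the strand of the gene from the TAIR10.1 reference of RefSeq, whose chromosomes have the lengths that the files use. The first 20 and last 30 bases of 4 introns are given with the terminal dinucleotides in capitals, to show that covered introns (MAF3, FIE) and nearly or wholly uncovered introns (FLC, KNAT6) were bounded alike.
MAF3 intron start: GTaagcttctttcctcttct
MAF3 intron end: aaatttttgttttgttcatgatatctccAG
FIE intron start: GTaaaagatctcgactttca
FIE intron end: actgccattggtgtatctcttattatgtAG
FLC intron start: GTacgccttttccttacctg
FLC intron end: atatttttattttttttgtcatctctccAG
KNAT6 intron start: GTatgtcttaaattatccct
KNAT6 intron end: gtgataattcttgtgaatttggtgtaacAG

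The whole sequences of 6 members at 16 °C follow, with G and C in capitals, since the share of these bases differed between introns with and without members. Both MAF3 members lay in the first intron of a floral repressor gene, whose cover rose at 25 °C. The FIE and SCL30 members came from well covered introns, and the FLC and KNAT2 members were the only ones in their introns.
MAF3, chr5:25988350-25988490: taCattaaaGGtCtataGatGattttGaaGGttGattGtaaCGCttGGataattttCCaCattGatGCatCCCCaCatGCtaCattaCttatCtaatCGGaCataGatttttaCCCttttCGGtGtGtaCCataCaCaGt
MAF3, chr5:25989310-25989450: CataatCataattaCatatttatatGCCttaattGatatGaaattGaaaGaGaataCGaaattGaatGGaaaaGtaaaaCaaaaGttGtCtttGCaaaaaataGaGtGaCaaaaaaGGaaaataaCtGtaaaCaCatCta
FIE, chr3:7251180-7251280: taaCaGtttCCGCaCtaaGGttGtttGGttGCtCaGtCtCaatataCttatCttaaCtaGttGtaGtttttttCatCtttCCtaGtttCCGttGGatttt
SCL30, chr3:20562010-20562130: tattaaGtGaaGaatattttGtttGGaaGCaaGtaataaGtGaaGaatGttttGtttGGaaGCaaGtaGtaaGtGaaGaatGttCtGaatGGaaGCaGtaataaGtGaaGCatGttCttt
FLC, chr5:3177710-3177850: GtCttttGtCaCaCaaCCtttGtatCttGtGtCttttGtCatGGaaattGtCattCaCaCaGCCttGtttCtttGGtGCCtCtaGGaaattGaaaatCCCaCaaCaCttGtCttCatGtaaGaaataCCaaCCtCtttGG
KNAT2, chr1:26579100-26579170: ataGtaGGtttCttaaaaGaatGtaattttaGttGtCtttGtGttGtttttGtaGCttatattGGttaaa
The GC content of these members was 35.7% and 24.3% in MAF3, 34.0% in FIE, 30.8% in SCL30, 38.6% in FLC and 24.3% in KNAT2. For comparison, the middle 100 bases of 2 introns without a member are given.
KNAT6, chr1:8299777-8299876: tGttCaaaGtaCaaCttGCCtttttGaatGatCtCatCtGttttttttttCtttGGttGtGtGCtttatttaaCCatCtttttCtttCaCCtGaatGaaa
SHP2, chr2:17821807-17821906: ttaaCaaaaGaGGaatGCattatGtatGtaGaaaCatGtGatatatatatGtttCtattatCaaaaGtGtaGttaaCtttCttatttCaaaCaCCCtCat
Their GC contents were 30% and 26%, inside the range of the members shown. The middle 100 bases of longer introns without a member in AT3G05410 and AT1G58602 had 44% and 37%, the former above that range.

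Long introns were covered less than short ones. Regions lay over 7.13% of the 1054026 bases of long introns at 16 °C and over 9.52% at 25 °C, compared with 22.6% and 31.0% of the bases of introns under 1000 bp. Cover was highest in introns from 200 to below 500 bp, at 27.8% and 37.9%, and was 22.4% and 29.7% from 500 to below 1000 bp. In long introns it went on to fall, from 9.88% and 13.2% below 1500 bp to 4.69% and 6.72% from 1500 to below 2500 bp, and to 3.99% and 4.67% in the 52 introns of 2500 bp or more. Per megabase, long introns held 311 members at 16 °C and 285 at 25 °C, where shorter introns held 947 and 969 regions. The decline was thus present in both lists and was not specific to the limit of 1000 bp. Introns from 900 to below 1000 bp were covered over 11.8% and 17.8% of their bases and introns from 1000 to below 1100 bp over 11.6% and 15.1%, so that values on either side of the limit were close.

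The share of introns that held a region followed length differently from cover. A longer intron has more room for a centre, but the part of this in the shares was not tested. Of the 662 long introns, 195 held a member at 16 °C (29.5%, 26.1 to 33.0) and 170 at 25 °C (25.7%, 22.5 to 29.1). Among introns of any length the shares were 13.7% at 16 °C and 14.1% at 25 °C. They reached 43.2% and 43.9% in introns from 500 to below 1000 bp, above the long introns in both lists, with intervals that did not overlap. Members were found in 123 long introns in both lists, in 72 at 16 °C only and in 47 at 25 °C only, and 420 introns held none. Of the introns with a member in 1 list only, 8 of the 72 and 5 of the 47 were still touched by a region of the other list. This split by list was not made for shorter introns, so it cannot be called particular to long ones. Of all nuclear regions, 64.4% at 16 °C and 51.0% at 25 °C were overlapped by a region of the other list. A single intron held at most 6 members at 16 °C and 7 at 25 °C. The larger number of members at 16 °C did not hold without regions narrower than 100 bp, when there were 227 at 16 °C and 229 at 25 °C.

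**Figure D1:**
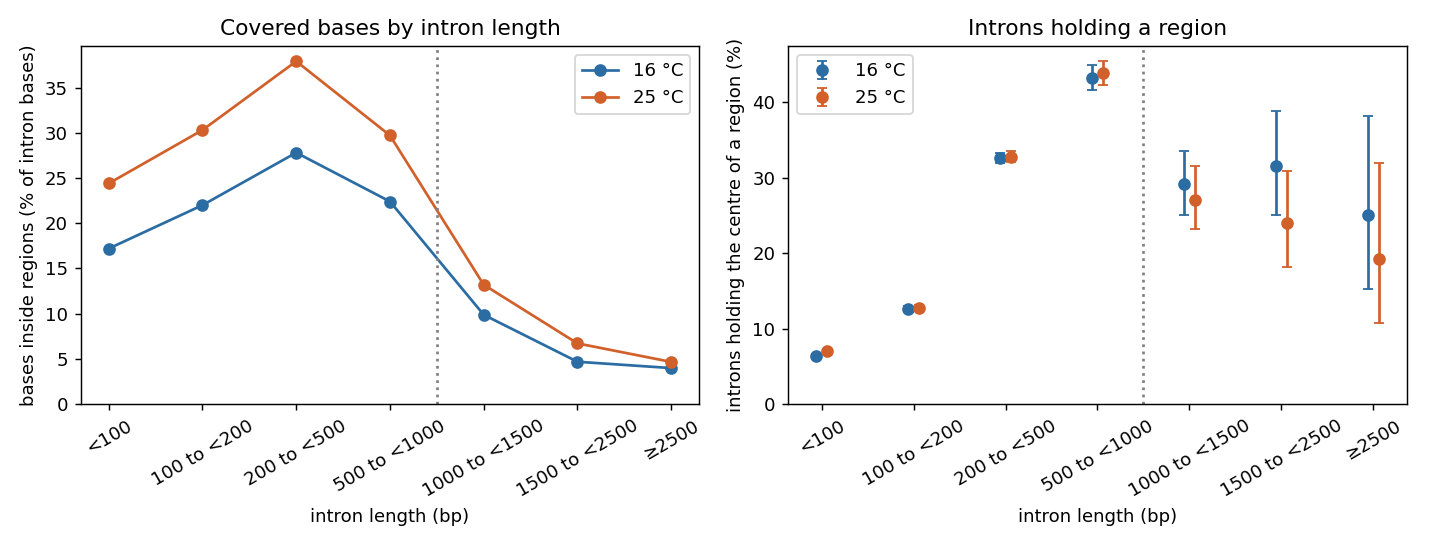
Left, percent of intron bases inside regions by intron length in bp. Right, percent of introns that hold the centre of a region, with Wilson 95% intervals as bars. Blue is the 16 °C list and orange the 25 °C list; introns to the right of the dotted line are long introns, where cover falls to 3.99% and 4.67% in the longest class.

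Because H3K36me3 varies along a gene, long introns were compared with other sequence at like distance from the gene start, in bins of 250 bp. At the distances where long introns lie, cover of shorter introns of all genes amounted to 20.4% (16 °C) and 29.1% (25 °C), so that the cover of long introns was 0.349 and 0.327 of theirs. Exons were covered over 13.1% and 18.7% at these distances, giving ratios of 0.542 and 0.508. The gap was smaller within the same genes. Shorter introns of the genes that contain a long intron were covered over 10.9% and 15.5% at like distance, and exons of these genes over 10.5% and 13.9%. Against these, the ratios of long introns were 0.656 and 0.616 for introns and 0.678 and 0.686 for exons. Within long introns cover peaked at 13.8% in the bin of 250 to 500 bp from the gene start at 16 °C, and at 16.6% in the bin of 500 to 750 bp at 25 °C.

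**Figure D2:**
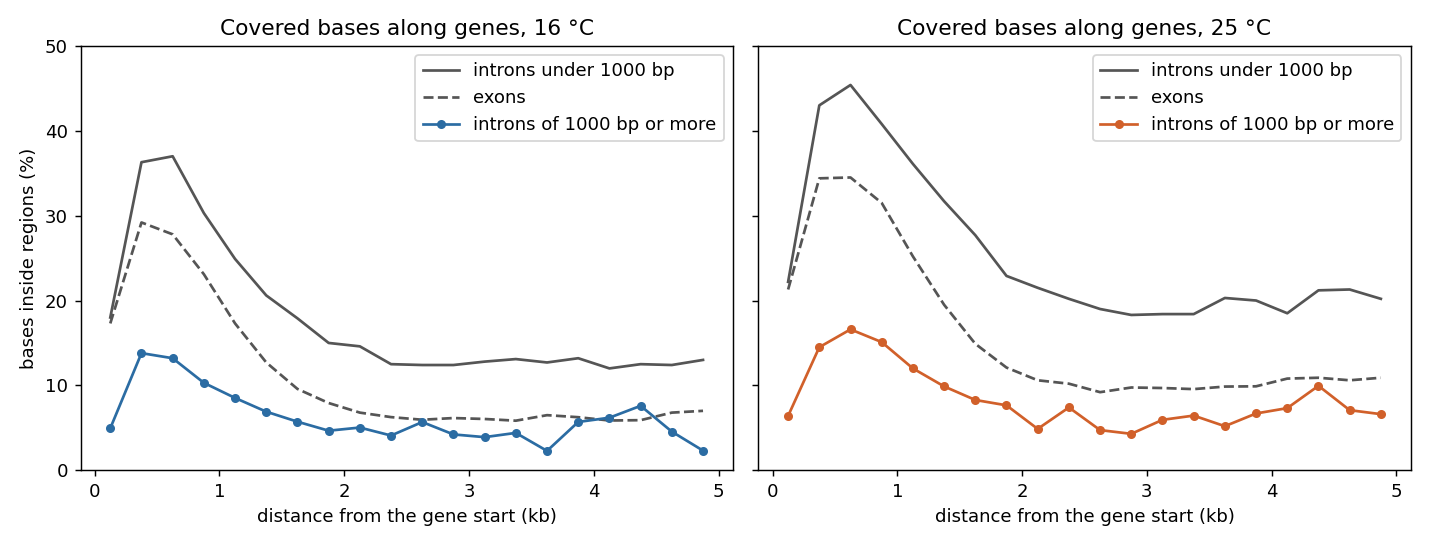
Percent of bases inside regions in bins of 250 bp by distance from the annotated gene start in kb, for the 16 °C list on the left and the 25 °C list on the right. Coloured lines with points are introns of 1000 bp or more, solid grey lines shorter introns and dashed grey lines exons; in both lists the coloured line lies below the solid grey line in every bin, with 13.2% against 37.0% at 500 to 750 bp at 16 °C.

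The mark declined across the intron. At 16 °C regions covered 13.6% of the first 100 bp of long introns and 5.03% of the last 100 bp. At 25 °C the values were 16.9% and 7.46%. Cover in the 100 bp before the intron, counting only bases that belong to the gene, was 13.3% and 15.8%, close to that just inside, and in the 100 bp after the intron it was 4.73% and 7.08%. In these bins cover showed no step at either splice site. Reads were extended to 150 bp before calling, so a step between neighbouring bins of 100 bp may not be resolved. Centres of members were spread more evenly, with 28.7%, 24.4%, 26.5% and 20.4% in 4 successive parts of equal length at 16 °C, and 25.3%, 24.3%, 26.7% and 23.7% at 25 °C.

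Members were close to other regions in width and height. Their median widths were 140 bp (16 °C) and 150 bp (25 °C), and 34.5% and 29.0% of members were 100 bp or narrower. These medians are about the extent of DNA of a single nucleosome, and also about the 150 bp to which reads were extended. What set the width was not tested. Regions of shorter introns had median widths of 150 and 180 bp, and all nuclear regions 150 bp in both lists. The upper end of the distribution differed more between lists, since the 90th percentile was 490 bp in the 16 °C list and 862 bp in the 25 °C list, beside 570 and 790 bp for all nuclear regions. Only 4 members at 16 °C (1.22%) but 21 at 25 °C (7.0%) were wider than 1000 bp, beside 2.12% and 5.82% of all nuclear regions. Height, the greatest coverage within a region on the scale of the caller, had a median of 263 at 16 °C and 289 at 25 °C, beside 275 and 292 for all nuclear regions, and reached 652 and 957. Members lay wholly inside their intron in 271 cases at 16 °C (82.6%) and 229 at 25 °C (76.3%), and the others reached over an end into an exon.

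Members recurred in the other list somewhat less often than regions of shorter introns. At 16 °C 57.9% of members (52.5 to 63.1) were overlapped by a 25 °C region, and at 25 °C 48.0% (42.4 to 53.6) were overlapped by a 16 °C region. Across all nuclear regions the shares were 64.4% and 51.0%, and for regions of shorter introns 74.0% and 59.0%, both above the intervals of the members. Width was closely tied to recurrence. In the 16 °C list 31.9% of the members up to 100 bp wide, 62.1% of those from there to 300 bp and 95.2% of the wider ones had a counterpart, and in the 25 °C list 14.9%, 43.6% and 91.2%. This tie was not particular to members. Of all nuclear regions at 25 °C, 18.6%, 44.5% and 92.8% in the same width classes had a counterpart. In both lists the share of all nuclear regions lay inside the Wilson interval of the members in every class. Regions of shorter introns lay above it up to 100 bp, at 49.2% (16 °C) and 26.0% (25 °C). At 16 °C they also did so from there to 300 bp, at 75.3%. In the other classes they lay inside it, at 50.2% from 100 to 300 bp at 25 °C and at 97.8% and 93.0% for wider ones. Wider regions also offer more bases to overlap. Introns holding members in only 1 list had narrow ones, with a median of 90 bp over 81 members at 16 °C and 100 bp over 65 members at 25 °C.

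Of the 258 long introns touched in at least 1 list, 152 (58.9%, 52.8 to 64.7) were covered more at 25 °C and 101 (39.1%) less. For introns of any length, 56.4% of those touched were covered more at 25 °C and 27.2% less. Losses thus made up a larger share of long introns. The shares with more cover were close, but 8355 of the 50944 touched introns of any length were covered equally, beside 5 of the 258 long ones. In introns from 500 to below 1000 bp 67.3% of those touched were covered more (65.2 to 69.2) and 29.9% less. That share with more cover lay above the interval of the long introns. The median change was 3.36 percentage points in touched long introns, compared with 11.6 points in all touched introns. Counted in bases the order was the opposite, with a median of 50 bp in touched long introns and 18 bp in touched introns under 1000 bp. Gains summed to 37022 bp against 11801 bp lost in long introns, and to 2338607 bp against 878573 bp in shorter introns, so that gains exceeded losses in both. In long introns 45 rose by 25 percentage points or more and 2 fell by as much, and the number covered over at least 50% of their length went from 39 to 69. Of 17 touched introns of 2500 bp or more 8 were covered more and 9 less (47.1% more, 26.2 to 69.0), an interval that includes the share of all long introns.

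**Figure D3:**
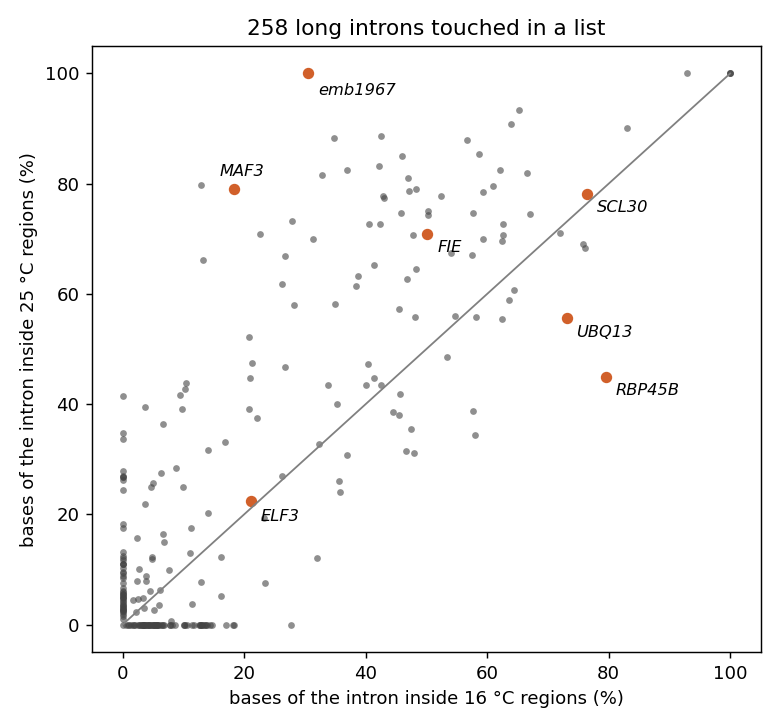
Percent of the bases of each intron inside regions at 16 °C (horizontal axis) and 25 °C (vertical axis), for the 258 long introns touched in a list. Each point is 1 intron, the line marks equal cover, and 7 introns named in the text are in orange; 152 points lie above the line and 101 below it.

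The largest gain in cover was in intron 3 of emb1967 (AT3G54350, chr3:20124956-20125962), which encodes a protein with a forkhead-associated domain. At 16 °C a member of 100 bp and the ends of the neighbouring regions covered 30.5% of it, and at 25 °C a single region of 2500 bp, the widest member of that list, covered all of it. The only intron of AT4G16535 went from 12.8% to 79.8%, with another protein-coding gene annotated inside it. Intron 1 of AT5G11340, an acyltransferase gene, went from 34.8% to 88.2% even though its only member was in the 16 °C list, since the 25 °C region over it was centred outside the intron. Intron 6 of AT4G10070, which encodes an RNA-binding protein with KH domains, went from 13.3% and 1 member to 66.2% and 4 members.

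The largest loss was in intron 2 of RBP45B (AT1G11650, chr1:3915894-3917020), a gene for an RNA-binding protein, where cover was 79.6% at 16 °C and 45.0% at 25 °C. It held 2 members in either list, of 300 and 500 bp at 16 °C and of 70 and 410 bp at 25 °C. Intron 2 of AT4G37235 had a 300-bp member over 27.8% of its length at 16 °C and no cover at 25 °C. The other 3 of the 5 largest losses, in AT3G47836, AT1G80610 and AT4G08230, left cover of 34.4%, 12.1% and 38.8%. No loss came to the size of the 5 largest gains.

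MAF3 (AT5G65060), a MADS-box repressor of flowering related to FLC, held the third largest gain. Its first intron spans 1959 bp at chr5:25987712-25989670. At 16 °C it held 4 members of 40, 40, 140 and 140 bp with heights of 211 to 319, and 18.4% of its bases were covered. At 25 °C it held 4 members of 520, 360, 630 and 100 bp with heights of 202 to 397, and 79.1% was covered. All 4 members at 16 °C were overlapped by a wider region at 25 °C. Cover of the MAF3 exons was 8.88% in the 16 °C list and 13.7% in the 25 °C list.

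Of 24 MADS-box genes of flowering and floral organs, 9 had a long intron, and none of the other 8 gained cover at 25 °C. Intron 1 of FLC (chr5:3175662-3179154) held a single 140-bp member at 16 °C with a height of 271, printed above, at a position where a long non-coding RNA is also annotated, and it held none at 25 °C. AG, which specifies stamens and carpels, held a 120-bp member and STK, which specifies ovules, a 40-bp member, both at 16 °C only. MAF5, another relative of FLC, was covered over 6.22% in both lists, by a member of 150 bp at 16 °C and by members of 110 and 40 bp at 25 °C. The long introns of MAF4, SHP2, CAL and SOC1 (annotated as AGL20) held no member. The exons of AG, STK, SHP2, CAL and SOC1 were not covered in either list.

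**Figure D4:**
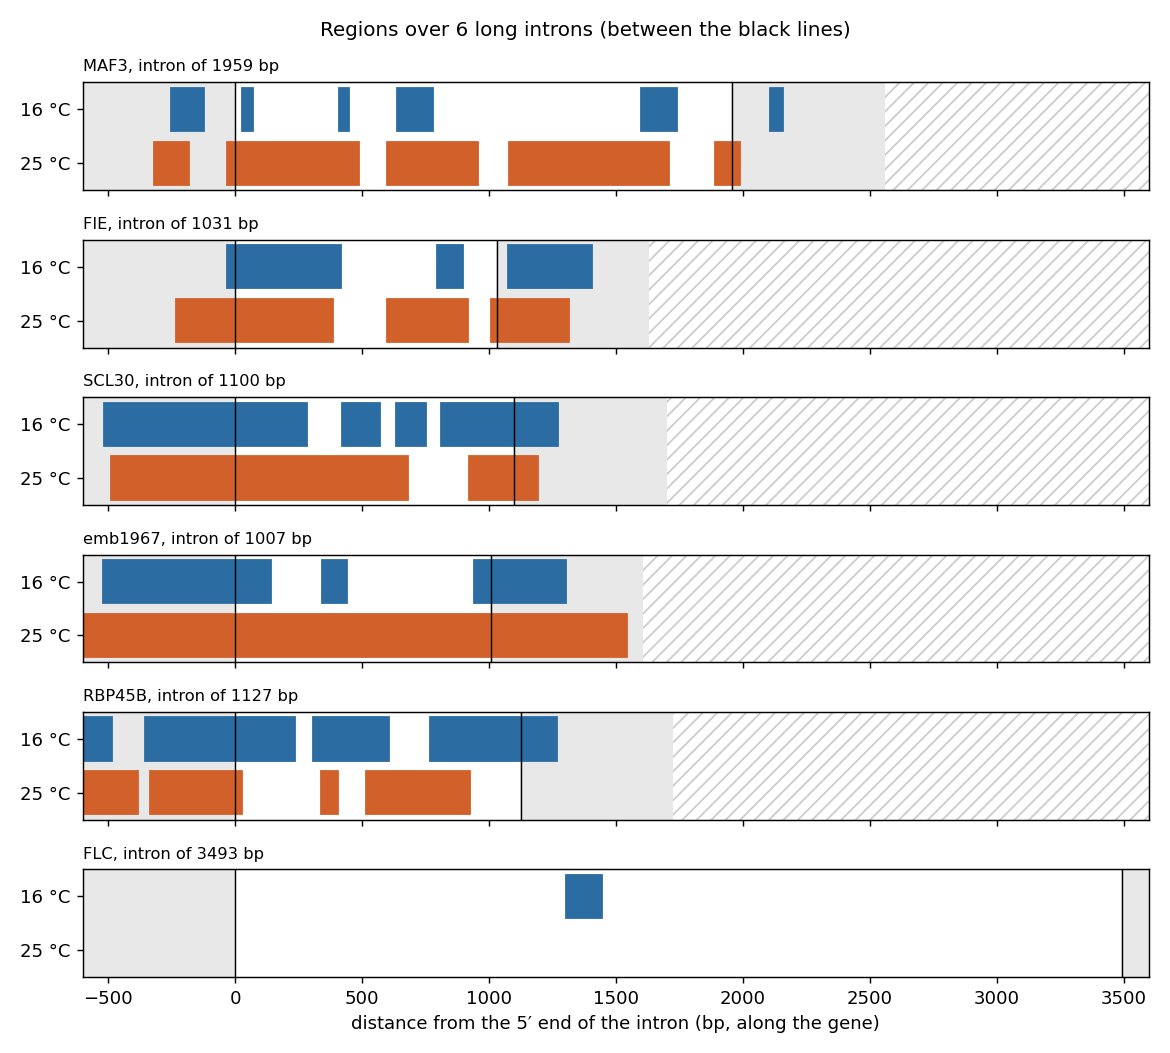
Regions over 6 long introns by distance in bp from the 5′ end of the intron, read along the gene. Black lines bound the intron, grey shows the 600 bp on either side, the hatched part is not drawn, and blue and orange blocks are regions at 16 °C and 25 °C; blocks in MAF3 widen from at most 140 bp to as much as 630 bp, while FLC has 1 block at 16 °C and none at 25 °C.

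Few other regulators in the gene lists used here had a long intron. Regulators outside those lists were not counted. FIE (AT3G20740), a subunit of Polycomb repressive complex 2, had members of 100 and 450 bp at 16 °C and of 320 and 620 bp at 25 °C in its first intron, which was covered over 50.1% and 70.9%. SCL30 (AT3G55460), a splicing factor of the SR family, was the only one of 28 splicing factor genes with a long intron. Its intron 3 was covered over 76.4% and 78.2%, by members of 150, 120 and 460 bp at 16 °C and of 1170 and 270 bp at 25 °C. ELF3 (AT2G25930), a component of the evening complex of the clock, held members of 70 and 180 bp at 16 °C and of 160 bp at 25 °C, with cover of 21.2% and 22.4%. KNAT2, a homeobox gene of the shoot meristem, held a 70-bp member at 16 °C only in its intron of 4162 bp, and the related KNAT6 held none in its intron of 3676 bp.

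Of 3 genes known for a heterochromatic long intron, 2 had an intron that met the limit of 1000 bp, and they had 4 such introns. The disease resistance gene AT1G58602 held an 80-bp member at 16 °C in an intron of 7384 bp, at a position where a pseudogene is also annotated, and its other 2 long introns held none. The intron of 5411 bp in AT3G05410 held no member in either list. Altogether the gene lists contained 18 long introns, of which 10 held a member at 16 °C and 5 at 25 °C, beside 29.5% and 25.7% of all long introns. The 5 with a member at 16 °C only (AT1G58602, FLC, AG, STK and KNAT2) held 1 each, of at most 140 bp.

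Cover was highest, among introns with a member, in the following genes. Intron 1 of AT5G13430, which encodes the iron-sulfur subunit of respiratory complex III, was covered over 92.9% by a 1400-bp member at 16 °C and over 100% by a 1530-bp member at 25 °C. Cover was 83.1% and 90.1% in AT4G13970, and 65.2% and 93.3% in OTLD1, an OTU-type deubiquitinase. The tallest member at 16 °C, with a height of 652, was in SSI2, a stearoyl-acyl carrier protein desaturase gene, whose tallest 25 °C member was 666. At 25 °C the tallest was a 1630-bp member of AL2, which encodes a PHD finger protein, with a height of 957. At 16 °C the same intron had members of 210 and 50 bp with heights of 430.2 and 193. ADT1, an arogenate dehydratase gene of phenylalanine synthesis, had a tallest member with a height of 499.5 at 16 °C and 842 at 25 °C.

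In 4 long introns the reference sequence matched an organelle genome over words of 50 bases, the length of the reads. The 3 introns of AT2G07656 and AT2G07806 were covered over 100% in both lists by 1 wide region, which spanned 58180 bp in the 16 °C list and 79330 bp in the 25 °C list and had heights of 13208 and 10083. That region was centred elsewhere, so these introns held no member. In the intron of UBQ13, which the annotation notes as an insertion of mitochondrial DNA, 3421 of 3798 bases began such a word. It held the widest member at 16 °C, of 2370 bp, and its cover was 73.2% and 55.6%. Without these 4 introns cover was 6.57% at 16 °C and 9.04% at 25 °C.

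Most of the 5 longest introns were covered less than long introns as a whole (7.13% and 9.52%). Of the 52 introns of 2500 bp or more, 25.0% (15.2 to 38.2) and 19.2% (10.8 to 31.9) held a member. Both intervals include the share of all long introns. Intron 2 of AT2G34100, of 11356 bp, and intron 4 of AT1G35895, of 6246 bp, held no member. Intron 1 of AT3G60961, of 10234 bp, held 2 members at 16 °C and 4 at 25 °C, covering 2.35% and 8.01%. AT2G34110, of 9724 bp, was an exception with 4 and 5 members and cover of 16.1% and 12.2%, and it overlaps protein-coding and lncRNA genes. The most members were in intron 1 of AT3G05350, a metallopeptidase gene, with 5 at 16 °C and 7 at 25 °C. All 5 members at 16 °C and 5 of the 7 at 25 °C were centred where another protein-coding gene is annotated. Of all members, 52 at 16 °C (15.9%) and 54 at 25 °C (18.0%) had another gene at their centre, and the files do not tell which gene such a region belongs to.

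Base composition separated introns with and without members. Long introns were divided into 4 classes of 165 or 166 by GC content. In the lowest class, below 27.3%, 19 of 166 held a member at 16 °C (11.4%, 7.45 to 17.2) and 4 at 25 °C (2.41%, 0.941 to 6.03). In the second class 13.9% and 8.48% held one, and in the third 35.8% and 35.2%. In the highest class, from 33.8%, 94 of 166 introns held a member in each list (56.6%, 49.0 to 63.9), 80 of them in both. Between the lowest and the highest class, cover at 16 °C rose from 0.738% to 17.6%, and cover at 25 °C from 0.291% to 24.1%. The difference was also seen in introns from 500 to below 1000 bp, where 4.92% and 4.19% of introns in the lowest class and 63.5% and 62.7% in the highest held a region. At like GC content, however, these shorter introns were covered more, over 36.8% and 49.2% in the highest class.

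**Figure D5:**
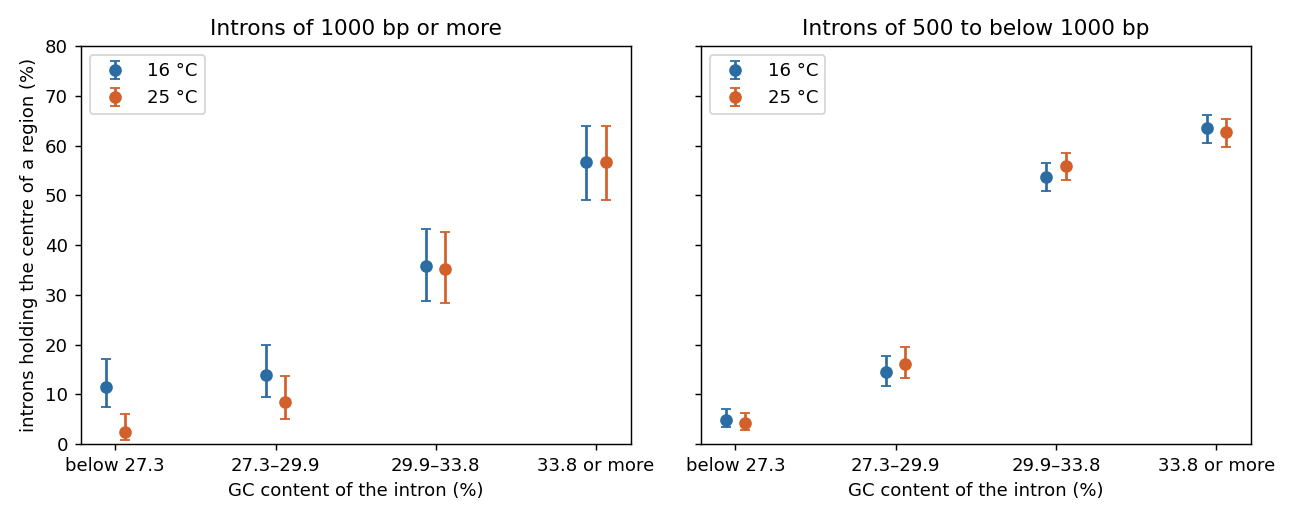
Percent of introns that hold the centre of a region by GC content of the intron, for introns of 1000 bp or more on the left and from 500 to below 1000 bp on the right, with Wilson 95% intervals as bars. Classes are those of equal size among the long introns; in the class below 27.3% the long introns are at 11.4% at 16 °C and 2.41% at 25 °C.

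Within an intron no such difference was found. Over 150 introns at 16 °C the bases inside regions had a higher GC content than those outside in 77 and a lower one in 73, with a median difference of 0.141 points. At 25 °C the counts were 74 and 75 over 149 introns, with a median difference of -0.0370 points. Reads of 50 bases could also be placed less often in some long introns. Unique words of 50 bases began at 94.3% of the bases of long introns and at 98.5% of those of shorter introns, and at 86.0% in introns of 2500 bp or more. Over unique bases alone the cover of long introns was 6.84% and 9.37%, and in the long introns with at least 90% unique words 30.5% held a member at 16 °C and 26.8% at 25 °C. The part of GC content in the amplification and placing of reads was not tested.

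Members were more frequent where other regions covered exons of the gene. Since 57 members at 16 °C and 71 at 25 °C themselves reached into an exon, regions that touched the long intron were left out when exon cover was scored, a choice made after seeing the data. In the 310 long introns of genes with an exon covered by such another region in either list, 41.6% (36.3 to 47.2) held a member at 16 °C and 39.7% (34.4 to 45.2) at 25 °C. In the other 352 introns 18.8% (15.0 to 23.2) and 13.4% (10.2 to 17.3) did. Among the 310, the share holding a member went from 15.2% and 3.03% in the lowest GC class to 70.7% and 71.7% in the highest.

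The order and place of the intron in the gene were compared next. First introns, 354 of the 662, held a member in 31.4% and 27.7% of cases and later introns in 27.3% and 23.4%, with overlapping intervals. Long introns before the coding sequence, 79 in number, held one in 31.6% and 20.3% of cases, the 546 within it in 28.8% and 25.5%, and the 37 after it in 35.1% and 40.5%, again with overlapping intervals. Where another gene lay wholly inside the intron, as in 50 introns, 36% and 40% held a member. By chromosome, the share ranged from 26.3% on chromosome 2 to 33.3% on chromosome 3 at 16 °C, and from 18.3% on chromosome 1 to 37.4% on chromosome 3 at 25 °C, where the intervals (13.4 to 24.6 and 28.5 to 47.2) did not overlap. These were the lowest and highest chromosomes, picked after the values were seen, so the gap is no test of a difference between chromosomes. Of the long introns, 550 were identical with an intron of a transcript, and 112 were only part of one because another transcript has an exon there. The former held a member in 31.5% and 27.5% of cases and the latter in 19.6% and 17.0%. GT and AG bounded 557 long introns (84.1%), compared with 96.5% of shorter introns, and these held a member in 31.8% and 27.8% of cases, against 17.1% and 14.3% with other ends. Of the 105 introns with other ends, 101 were such parts of a longer intron.

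The study lists genes as differentially spliced (DiS) after the temperature change, and 13 of these had 18 long introns. The list was drawn up from RNA of the same study, so it is not independent of these plants. A member was held by 9 of the 18 introns in each list (50%, 29.0 to 71.0), and cover was 11% at 16 °C and 21.0% at 25 °C. Of the 11 introns touched in a list, 10 were covered more and 1 less, beside 58.9% and 39.1% of all touched long introns. NUDT22, a nudix hydrolase gene, contained 4 of the 18 introns. Cover of these 4 went from 16.8% to 33.2%, from 26.7% to 46.8%, from 28.2% to 58.0% and from 50.2% to 75.1%. Without NUDT22, 5 of 14 introns held a member in each list (35.7%, 16.3 to 61.2), an interval that includes the shares of all long introns. Their cover was 7.92% and 15.8%, with 6 introns covered more and 1 less. The 6 included the introns of emb1967, from 30.5% to 100%, and MAF3, from 18.4% to 79.1%. Both were among the 5 largest gains of all long introns. The others of the 6 rose by at most 18.1 percentage points. Cover without emb1967 and MAF3 was not computed, so the rise is not shown to be general to the 14 introns. Among the 28 long introns of genes listed as changed in expression on day 1, 25.0% and 21.4% held a member, cover was 1.73% and 3.37% (7.13% and 9.52% over all long introns), and 5 introns were covered more and 5 less.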

How the data were processed

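H3K36me3 and H3 ChIP samples were sequenced as single reads of 50 bp. The authors mapped reads to TAIR10 (Bowtie in the methods, Bowtie2 in the submitters' processing notes, versions not given in the sources used here) and called regions with Dpeak of DANPOS2, with reads extended to 150 bp. No source used here says whether H3 entered the calling as a control. Replicates were pooled, and 1 region list was deposited per temperature, with positions in steps of 10 bp. The deposited heights are coverage signal as scaled by the caller, and the deposited −log10 p-values come from its own background model. The latter were used only to choose the stronger regions in an alternative. The depth of the samples is unknown.

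Introns were taken from the RefSeq annotation of TAIR10.1 (27444 nuclear protein-coding genes). Cover is the percent of bases inside regions, and a region belongs to the intron that holds its centre. Regions were shared when they overlapped by at least 1 bp. Words of 50 bases were called unique when they occurred once in the whole assembly on both strands. Shares have Wilson 95% intervals, and no test was made, because there is 1 pooled list per temperature. Functions were tested on simulated regions. Python 3.11.15, numpy 2.4.6, pandas 2.3.3 and scipy 1.17.1 were used.

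Introns were named by rule: those of genes in 9 hand-written lists, the 6 with highest mean cover, the 5 largest gains and losses, the 5 with most members, the 5 longest, and those with the 3 widest and 3 tallest members of each list. The printed members were chosen after their values were seen. The members and the lists were chosen with earlier results of these data known. Lists of genes with leader introns and of factors for transcription through heterochromatic introns had no long intron. Alternative settings changed the minimum intron length, the regions kept, the assignment of regions, the genes and the overlap, and 3 more were added after the data were seen.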

Additional observations from a re-analysis of the deposited data

How the results depend on the processing

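No paired analysis was possible because each temperature has only 1 list of pooled replicates, and for the same reason no replicate could be left out. Cover was higher at 25 °C under all 11 alternatives that recomputed it, and long introns were covered less than shorter introns at like distance in all 18 ratios. The higher share of introns holding a member at 16 °C held under 6 of 8 alternatives and the larger number of members at 16 °C under 7 of 10. Both orders turned with an intron minimum of 750 bp and with the stronger regions by p-value, and the number also turned without regions narrower than 100 bp (227 and 229). Of 127 recomputed values 84 stayed within an interval around the value reported, or within 1.5 times for numbers of members. The other 43 moved and are given here in the order 16 °C and 25 °C. Shares had Wilson intervals, and median widths had intervals taken from the ranked widths. For cover and ratios the covered percent was treated as a share of the 662 introns, giving 5.41% to 9.35% for cover at 16 °C. Such intervals do not measure the error of cover, so for these values the split is only a convention.

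With a minimum intron length of 750 bp there were 761 and 778 members, cover was 10.7% and 14.6%, 33.7% and 34.1% of introns held a member, 68.7% and 56.4% of members were shared, 66.7% of touched introns were covered more at 25 °C, and the ratios to shorter introns were 0.472 and 0.462. With 1500 bp there were 124 and 111 members, cover was 4.40% and 5.87%, 49.2% and 40.5% were shared, the median width at 25 °C was 140 bp, 51.2% of touched introns were covered more at 25 °C, and the ratios were 0.238 and 0.219. Without regions narrower than 100 bp 21.6% and 21.3% of introns held a member, 69.2% and 54.6% of members were shared, median widths were 160 and 200 bp, and 65% of touched introns were covered more at 25 °C. With only the regions at or above the median −log10 p of their list there were 134 and 147 members in 15.3% and 15.7% of introns, cover at 16 °C was 5.33%, 74.6% and 61.2% were shared, median widths were 285 and 350 bp, and 72.5% of touched introns were covered more. Counting a region by at least 50% of its bases, and only such regions, gave cover of 7.34% at 25 °C. Genes that overlap no other gene held 191 and 151 members. With a reciprocal overlap of 50%, 11.9% and 12.7% of members were shared. No value moved with equal numbers of the tallest regions, with introns as annotated in any transcript, without introns with organelle words, over unique bases or with only introns identical with an annotated one. The last 3 of these alternatives were chosen after seeing the data. Taking equal numbers left the shorter 16 °C list as it was, so its values other than the share of members overlapped could not move.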
